A study of Homo sapiens with 24 samples.

Results

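A2M, 5 serpins, CHI3L1, AGT and CP encode secreted proteins, and their transcripts were compared between low and high glucose in 3 estrogen receptor-positive (ER+) breast cancer cell lines. The 9 genes were picked by symbol among the 18889 genes of the table, and each had 1 row. Their values in the comparisons below were known when they were picked, so those values are given as a description and carry no p-value. The genes are A2M, SERPINA1, SERPINA3, SERPINA5, SERPINE2, SERPINB5, CHI3L1, AGT and CP.

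The cultures came from HCC1500, MDA-MB-175 and ZR-75-30, established human breast carcinoma lines. Each line was kept in medium with 5 mM glucose (LG) or 25 mM glucose (HG) for 48 hours, with 4 cultures in each of the 6 groups and 24 RNA-Seq libraries in all. Cells were first conditioned at low glucose, and the glucose media held no serum. No osmotic control is labelled among these libraries, so a difference in glucose and one in osmolarity cannot be told apart. Replicate numbers do not say whether cultures were independent, so the spread between them may be technical.

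Acute-phase proteins are plasma proteins, made largely by the liver, whose output changes in inflammation. Many of them control proteases. Serpins trap a protease by a change of their own shape, alpha-2-macroglobulin (the A2M product) cages proteases of several classes, and the complexes are cleared through receptors such as LRP1. Cytokines of the IL-6 family act on these genes through STAT3, together with C/EBP factors, and glucocorticoids add to the response. AGT is a serpin by fold that inhibits no protease and is the source of the angiotensin peptides.

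Values are the normalised values of the deposited table, each equal to a whole number of reads times 1 factor per library. The libraries held 9140024 to 17998819 reads. All 8 luminal epithelial markers, ESR1 and KRT8 among them, were detected in every group, with a summed value of 30778 to 64553 per library. Their levels differed between lines, with CDH1 at LG at 55.6 ± 6.51 in ZR-75-30, 6498.5 ± 11.1 in MDA-MB-175 and 8223 ± 41.4 in HCC1500. TXNIP, a glucose-induced gene, was higher at HG in every culture of each line, with a log2 change of 1.02 ± 0.07 (SE) in HCC1500. The other lines had log2 changes of 0.76 ± 0.04 (ZR-75-30) and 0.39 ± 0.04 (MDA-MB-175). In HCC1500, HG replicate 3 stood apart. Its value differed by more than 1 on the log2 scale from the mean of the other HG cultures for 24.4% of 12488 genes, and this difference had a Spearman correlation of -0.56 with exon length across those genes. HCC1500 results are therefore given with and without that culture. Log2 changes are high minus low glucose on the log2(value + 1) scale with the standard error of the limma fit, which understates changes of low genes, and 4 cultures stand behind each group value unless stated.

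**Figure D1:**
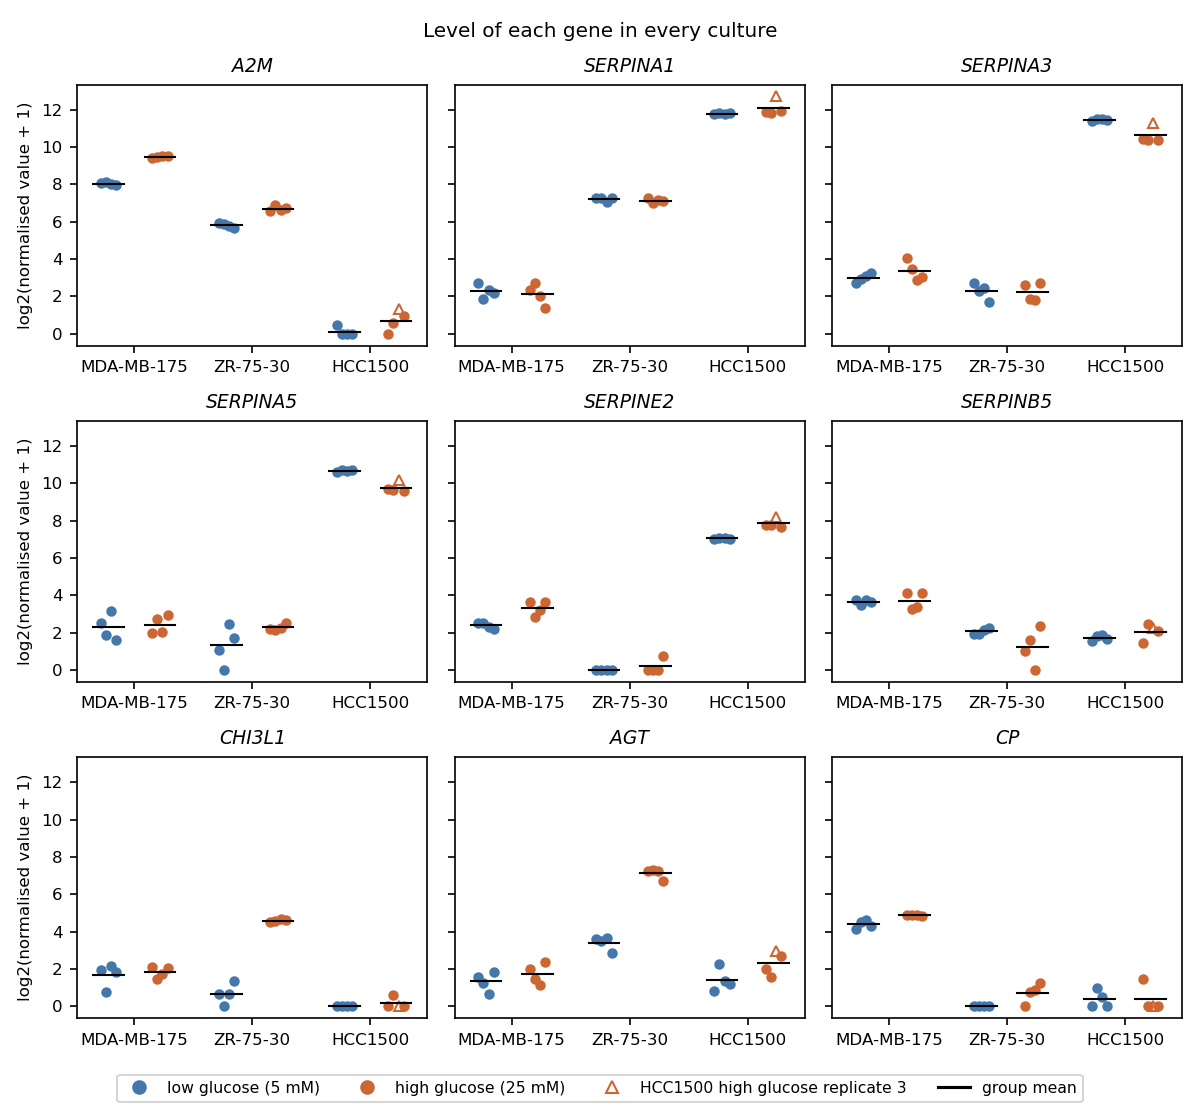
Normalised value of each of the 9 genes on a log2(value + 1) scale (y axis) in each culture of the 3 lines (x axis), with low glucose in blue, high glucose in orange, a black bar at the group mean and an open triangle for HCC1500 HG replicate 3. SERPINA1, SERPINA3, SERPINA5 and SERPINE2 were highest in HCC1500, A2M and CP in MDA-MB-175, and AGT and CHI3L1 in ZR-75-30 at high glucose.

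A2M followed glucose in both lines that expressed it. It lies on chromosome 12 (GRCh37 chr12:9220260-9268825, minus strand). In MDA-MB-175 the LG cultures had values of 270, 277, 261 and 248 and the HG cultures 681, 700, 743 and 731. The conditions were far apart, with means of 264 ± 12.7 (SD) and 714 ± 28.6, a 2.70-fold difference and a log2 change of 1.43 ± 0.05. In ZR-75-30 the values were 59.3, 56.9, 54.1 and 49.6 at LG and 94.3, 118, 99.9 and 104 at HG. Every HG culture was again above every LG culture, and the means of 55.0 ± 4.14 and 104 ± 10.2 differed 1.89-fold (log2 change 0.91 ± 0.10). In HCC1500 A2M had 1 read over the 4 LG libraries and 5 over the 4 HG libraries, with no more than 2 in any library, so no change could be measured at this depth. In these bulk libraries, a larger share of cells with the transcript and more transcript per cell cannot be told apart. Some markers of other cell types moved with glucose in MDA-MB-175 as well. The summed value of the 5 fibroblast markers was 115 to 138 at LG and 139.7 to 179 at HG, but single markers differed in direction. LUM was at 21.9 ± 2.21 and 58.7 ± 9.96, COL3A1 at 10.2 ± 1.98 and 14.8 ± 5.40, and COL1A1 at 75.0 ± 6.32 and 75.5 ± 3.49. COL1A2 was at 18.8 ± 2.04 and 10.7 ± 2.28, and DCN at 1.40 ± 0.597 and 0.899 ± 0.518. The 2 basal markers of 4 that matched a row summed to 53.6 to 79.7 and 82.0 to 89.0, and the 2 leukocyte markers of 5 to 2.01 to 5.69 and 5.08 to 12.5. The 3 endothelial markers of 4 that matched a row had overlapping sums, at 75.3 to 91.7 and 79.4 to 95.3. Of these, VWF was lower at HG, at 50.5 ± 5.32 and 35.8 ± 3.06. CDH5 was higher, at 18.8 ± 2.27 and 29.2 ± 3.64, as was KDR, at 17.1 ± 4.56 and 25.1 ± 3.85. The part of cells with any of these markers in the A2M, SERPINE2 and CP values was not tested. A2M-AS1, an antisense transcript that shares 561 exon bases with A2M on the other strand, had group means of 1.90 and 2.80 in MDA-MB-175 and 0.846 and 1.43 in ZR-75-30. Whether reads were counted by strand is not given in the sources used here.

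SERPINA1, SERPINA3 and SERPINA5 were high in HCC1500, and there the last 2 were lower at HG while SERPINA1 was not. SERPINA1 encodes alpha-1-antitrypsin, the plasma inhibitor of neutrophil elastase. SERPINA3 encodes alpha-1-antichymotrypsin, which inhibits cathepsin G and chymase, and SERPINA5 encodes the protein C inhibitor. In HCC1500 at LG the SERPINA3 values were 2715, 2922, 2859 and 2841, and at HG they were 1380, 1348, 2522 and 1358. Replicate 3 was the culture at 2522, still below the lowest LG culture. The mean was 2834 ± 86.7 at LG and 1652 ± 580 at HG, a log2 change of -0.83 ± 0.20. Without replicate 3 the HG mean was 1362 ± 16.2 (n = 3) and the log2 change was -1.06 ± 0.03, or 2.08-fold lower.

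SERPINA5 in HCC1500 had values of 1566, 1653, 1591 and 1660 at LG and 816, 794, 1161 and 778 at HG. The conditions did not overlap, and replicate 3 was again the highest HG culture. The log2 change was -0.89 ± 0.13 with all cultures and -1.02 ± 0.03 without replicate 3, when the means were 1617 ± 46.2 and 796 ± 19.2 (n = 3), a 2.03-fold difference. SERPINA1 in the same cultures had values of 3467, 3620, 3519 and 3601 at LG and 3820, 3690, 6746 and 3929 at HG. All HG cultures were above the LG cultures, but the distance was small apart from replicate 3. The log2 change was 0.31 ± 0.18 with all cultures and 0.10 ± 0.03 without replicate 3, with means of 3552 ± 71.5 and 3813 ± 119 (n = 3).

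In the other lines the same 3 serpins showed no separation by glucose. SERPINA1 in ZR-75-30 had values of 156, 155, 130 and 155 at LG and 154, 128, 142 and 136 at HG, and the log2 change was -0.09 ± 0.08. SERPINA1 was near 4 in both conditions of MDA-MB-175, with means of 3.96 ± 1.23 and 3.64 ± 1.73. SERPINA3 had means of 7.09 ± 1.27 and 9.81 ± 4.08 in MDA-MB-175 and 4.09 ± 1.36 and 3.99 ± 1.58 in ZR-75-30. SERPINA5 had means of 4.38 ± 2.68 and 4.64 ± 1.93 in MDA-MB-175 and 1.99 ± 1.95 and 3.91 ± 0.619 in ZR-75-30. In each case the conditions overlapped.

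The 3 genes lie in 1 cluster of serpins on chromosome 14, at GRCh37 chr14:94843084-94857030 (SERPINA1, minus strand), chr14:95027779-95059455 (SERPINA5, plus strand) and chr14:95078721-95090392 (SERPINA3, plus strand). The table held 7 SERPINA genes of the cluster over 344 kb. In HCC1500 they did not move as a block. SERPINA6 encodes the corticosteroid-binding globulin and is next to SERPINA1 among these 7 genes, on the side away from SERPINA5. SERPINA6 had values of 1475, 1615, 1565 and 1625 at LG and 3175, 3123, 5900 and 3106 at HG. It rose, with a log2 change of 1.23 ± 0.20 (limma adjusted p = 0.0036), or 0.998 ± 0.032 without replicate 3 (adjusted p = 2.09e-14). SERPINA4, which encodes kallistatin and shares 53 exon bases with SERPINA5 on the same strand, fell from 38.2 ± 6.13 to 21.1 ± 9.02 with a log2 change of -0.89 ± 0.27 (adjusted p = 0.0452), or -1.14 ± 0.17 without replicate 3 (adjusted p = 1.24e-05). SERPINA10 and SERPINA11 had means of at most 5.06 in HCC1500 and did not pass the test. SERPINA3 shares 1585 exon bases on its own strand with the readthrough gene ENSG00000273259, which also shares 79 with SERPINA5 and was not used here, so reads in those bases could belong to either.

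**Figure D2:**
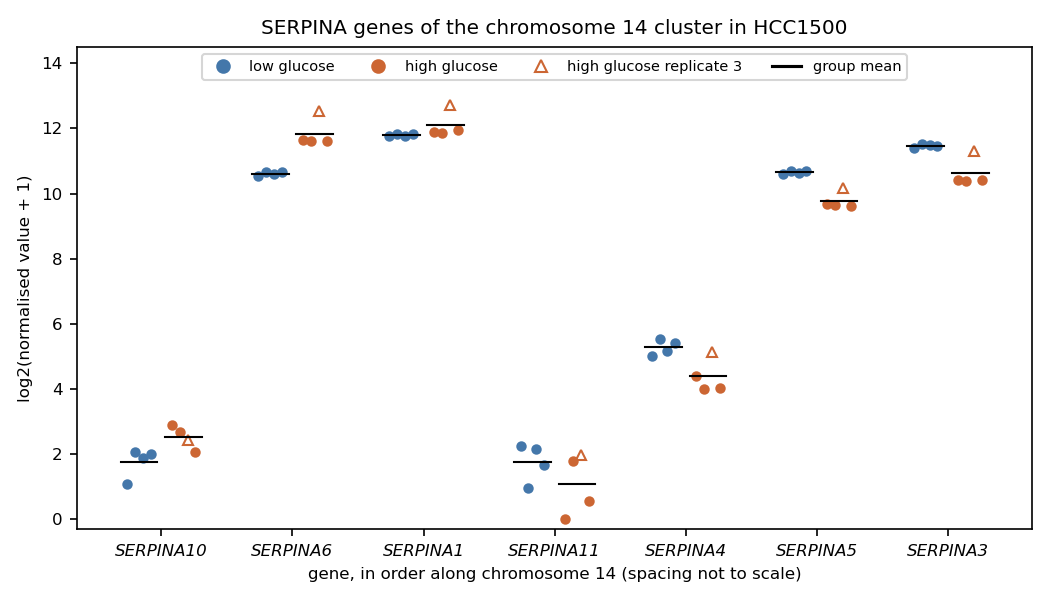
Normalised value of the 7 SERPINA genes of the chromosome 14 cluster in HCC1500 on a log2(value + 1) scale (y axis), with genes in chromosomal order (x axis), each culture as a point, group means as bars and high glucose replicate 3 as an open triangle. SERPINA6 was higher at high glucose, SERPINA1 differed little apart from replicate 3, and SERPINA5 and SERPINA3 were lower.

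Promoter sequences are shown for the 2 serpins that were lower at HG in HCC1500, since they share a cluster, a strand and a direction. They are from RefSeq on GRCh38.p14, hold 250 bases before and 50 after the annotated start, and are written 5′ to 3′ on the gene's strand, with motif matches in capitals. SERPINA3 is chr14:94612141-94612440 (plus) and SERPINA5 is chr14:94581176-94581475 (plus).
SERPINA3: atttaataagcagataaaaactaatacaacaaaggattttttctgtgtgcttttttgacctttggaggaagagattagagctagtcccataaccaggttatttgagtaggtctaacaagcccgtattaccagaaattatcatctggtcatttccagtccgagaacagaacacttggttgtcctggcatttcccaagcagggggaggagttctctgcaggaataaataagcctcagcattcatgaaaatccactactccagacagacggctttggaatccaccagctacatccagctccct
SERPINA5: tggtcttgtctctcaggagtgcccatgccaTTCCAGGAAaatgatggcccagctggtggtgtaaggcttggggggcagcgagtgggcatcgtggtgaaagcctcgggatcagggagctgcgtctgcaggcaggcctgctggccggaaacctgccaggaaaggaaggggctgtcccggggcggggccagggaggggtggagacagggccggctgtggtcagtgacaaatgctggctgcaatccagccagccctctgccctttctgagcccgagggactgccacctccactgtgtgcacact

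Both strands were searched for 5 motifs, and no matches overlapped. They were the STAT site TTCNNNGAA, the C/EBP core TTGCNNAA, the E-box CACGTG, the TATA box TATAAA and the partial HNF1 site GTTAAT. Among 35116 promoters of this length, 7.66% held the STAT site, 10.5% the C/EBP core, 7.26% the E-box, 11.5% the TATA box and 6.88% the partial HNF1 site. The SERPINA5 window held 1 STAT match, from -220 to -212 relative to the start, and had a GC content of 64.0%. The SERPINA3 window held none of the 5 and had a GC content of 42.3%. Of the 9 genes, 7 matched a promoter entry. One of the 2 SERPINA1 entries held a partial HNF1 site from -76 to -71, and 1 of the 2 SERPINE2 entries held an E-box from -87 to -82. A match is a run of letters and not a measured binding site.

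AGT and CHI3L1 had the largest changes among the 9 genes, both in ZR-75-30. AGT encodes angiotensinogen, and CHI3L1 encodes a secreted chitinase-like glycoprotein that binds chitin without cutting it and is made by macrophages and several tumour types. In ZR-75-30 the AGT values were 11.1, 10.2, 11.4 and 6.11 at LG and 149, 156, 150 and 105 at HG. Replicate 4 was lowest in both conditions, and the conditions were far apart. The mean went from 9.70 ± 2.45 to 140 ± 23.7, a 14.4-fold difference and a log2 change of 3.74 ± 0.19. In MDA-MB-175 the AGT means were 1.61 ± 0.853 and 2.50 ± 1.35, and in HCC1500 they were 1.85 ± 1.35 and 4.29 ± 2.19 (3.49 ± 1.84 without replicate 3, n = 3), with overlap in both lines.

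CHI3L1 in ZR-75-30 had 1, 0, 1 and 2 reads in the LG libraries and 42, 33, 57 and 34 in the HG libraries. The LG libraries were thus at or near the limit of detection, and the HG values of 21.9, 22.3, 24.2 and 23.3 lay close together. The ratio of the read rates was 38.1, with an exact 95% interval of 14.6 to 142 from the 4 and 166 reads, which covers counting error only. The log2 change was 3.92 ± 0.31 and depends on the pseudocount, at 4.50 with 0.5 and 2.31 with 5. In MDA-MB-175 the CHI3L1 means were 2.36 ± 1.18 and 2.63 ± 0.753. In HCC1500 there were 0 reads in the LG libraries, which allows values of up to 0.953 to 1.29 in each, and 1 read over the HG libraries.

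AGT lies at GRCh37 chr1:230826522-230881322 and CHI3L1 at chr1:203148059-203155832, both on the minus strand. AGT shares 1127 exon bases with COG2 on the other strand and 156 on its own strand with ENSG00000244137, a long non-coding RNA gene not used here. COG2, a subunit of a Golgi tethering complex, had means of 983 ± 9.35 and 1074 ± 34.5 in ZR-75-30 (log2 change 0.13 ± 0.04, adjusted p = 0.0088). Among leukocyte markers, 2 of 5 matched a row, and their summed value in ZR-75-30 went from 5.54 to 6.82 at LG to 33.6 to 43.9 at HG. That was the lysosomal protein gene CD68, at 5.66 ± 1.06 and 37.7 ± 4.36, while CD14 was at 0.520 ± 0.720 and 0.521 ± 1.04. The summed luminal markers moved too, from 49036 to 53679 at LG to 34942 to 40806 at HG. Most of that sum was KRT8 (means 18786 and 14822), KRT18 (15720 and 11920) and KRT19 (9921 and 5921). FOXA1 (2853 and 2294), GATA3 (1931 and 1785) and ESR1 (618 and 570) were lower at HG. EPCAM was higher (1318 and 1536), and CDH1 was at 55.6 and 56.5. The part of cells with leukocyte or luminal markers in the AGT and CHI3L1 values was not tested.

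The 2 promoters are shown because these genes had the largest changes. They are from RefSeq on GRCh38.p14, at chr1:230714073-230714372 (AGT, minus) and chr1:203186655-203186954 (CHI3L1, minus), with matches to the motifs above in capitals.
AGT: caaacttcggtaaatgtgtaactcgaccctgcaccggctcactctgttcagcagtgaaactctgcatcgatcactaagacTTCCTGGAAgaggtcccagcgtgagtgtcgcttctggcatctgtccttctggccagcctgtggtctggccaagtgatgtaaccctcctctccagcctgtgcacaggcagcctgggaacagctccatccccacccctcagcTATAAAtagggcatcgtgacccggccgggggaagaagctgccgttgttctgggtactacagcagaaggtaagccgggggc
CHI3L1: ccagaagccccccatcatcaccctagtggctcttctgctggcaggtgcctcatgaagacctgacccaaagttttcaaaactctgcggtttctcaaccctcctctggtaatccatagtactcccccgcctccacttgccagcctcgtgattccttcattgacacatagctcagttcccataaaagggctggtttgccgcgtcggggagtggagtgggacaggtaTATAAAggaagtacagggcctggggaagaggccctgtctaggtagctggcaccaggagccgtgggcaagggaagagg

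Both windows held a TATA box, from -30 to -25 in AGT and from -27 to -22 in CHI3L1. AGT also held a STAT match from -170 to -162, and no C/EBP core, E-box or partial HNF1 site was found in either window.

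SERPINE2 was higher at HG in both lines that expressed it. It encodes protease nexin-1, an inhibitor of thrombin and urokinase (GRCh37 chr2:224839762-224904035, minus strand). In HCC1500 the values were 126, 135, 132 and 131 at LG and 221, 214, 293 and 200 at HG. The conditions did not overlap and replicate 3 was the highest. The log2 change was 0.80 ± 0.13, or 0.69 ± 0.06 without replicate 3, when the means were 131 ± 3.65 and 212 ± 10.3 (n = 3). In MDA-MB-175 the level was low, at 4.82, 4.69, 3.99 and 3.56 at LG and 11.6, 6.25, 8.20 and 11.6 at HG. The ratio of read rates there was 2.22, with an exact 95% interval of 1.47 to 3.43 from 33 and 82 reads. ZR-75-30 had 1 SERPINE2 read over its 8 libraries.

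SERPINB5 and CP were low. SERPINB5 encodes maspin, a serpin of epithelial cells that is not known to inhibit a protease (GRCh37 chr18:61144191-61172318, plus strand). Its means were 11.7 ± 1.15 and 12.6 ± 4.24 in MDA-MB-175, 2.32 ± 0.359 and 3.30 ± 1.14 in HCC1500 (3.16 ± 1.36 without replicate 3, n = 3), and 3.21 ± 0.497 and 1.79 ± 1.75 in ZR-75-30, with overlap in each line. CP encodes ceruloplasmin, the copper-carrying ferroxidase of plasma (GRCh37 chr3:148880197-148939616, minus strand). In MDA-MB-175 it had values of 16.9, 21.4, 23.9 and 18.3 at LG and 28.3, 29.0, 28.5 and 27.9 at HG. The HG cultures lay close together above the LG cultures, with a log2 change of 0.49 ± 0.16. Its call was lost in 8 of 19 alternatives, 6 of which left out 1 culture. CP shares 1420 exon bases with HPS3 on the other strand, which had means of 254 ± 15.6 and 286 ± 8.95 there (log2 change 0.17 ± 0.06, adjusted p = 0.0412). CP had no more than 3 reads in any library of ZR-75-30 or HCC1500.

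**Figure D3:**
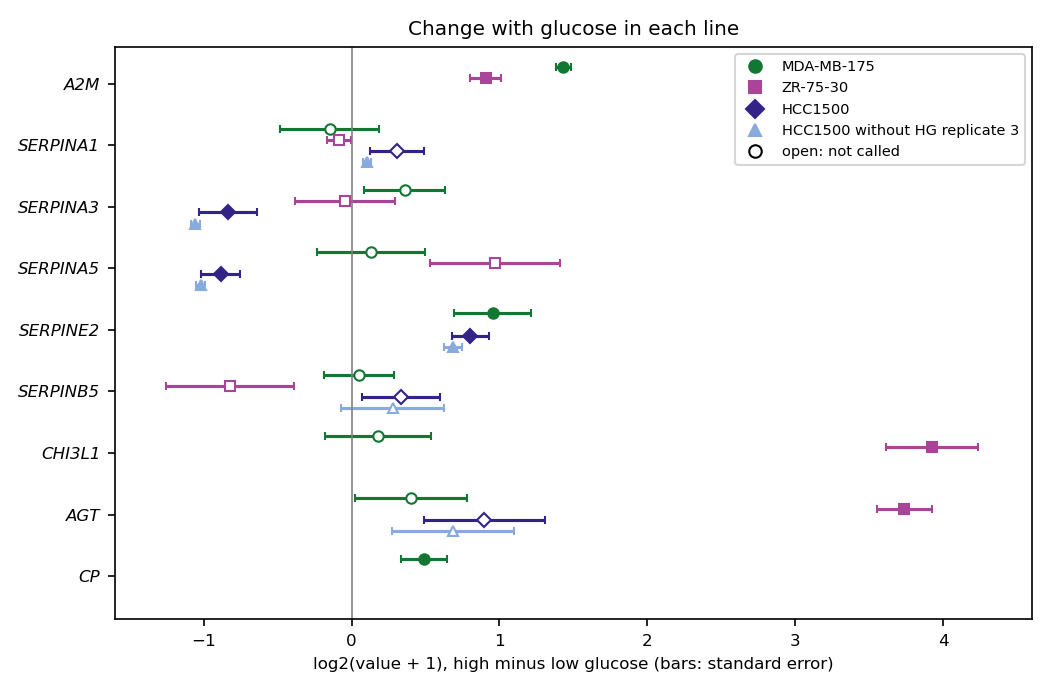
Change with glucose of each gene (y axis) in each line as high minus low glucose on the log2(value + 1) scale with its standard error (x axis). Filled symbols passed the test over all genes, open symbols did not, and genes below the filter in a line have no symbol. AGT and CHI3L1 in ZR-75-30 lie at 3.74 and 3.92, and SERPINA3 and SERPINA5 in HCC1500 lie below 0 with and without HG replicate 3.

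In the limma fit across all genes, called means a Benjamini-Hochberg adjusted p under 0.05. In MDA-MB-175 all 9 genes passed the filter on low values, and 3 were called, all of them higher (A2M, SERPINE2 and CP), while 25.7% of all genes were called, 11.9% higher and 13.7% lower. In ZR-75-30, 7 passed the filter, and 3 were called, all of them higher (A2M, AGT and CHI3L1), while 46.0% of all genes were called, 23.4% higher and 22.7% lower. In HCC1500, 6 passed the filter, and 1 was called higher (SERPINE2) and 2 lower (SERPINA3 and SERPINA5), while 20.5% of all genes were called, 7.46% higher and 13.0% lower. Without replicate 3, SERPINA1 was also called higher, and 58.5% of all genes were called, 20.9% higher and 37.7% lower. Of the calls in HCC1500, 36.4% were higher, or 49.2% under median-of-ratios scaling, and 35.7% and 51.0% without replicate 3. The SERPINA3 call was lost when any of 6 other cultures of HCC1500 was left out while replicate 3 stayed in. The conditions did not overlap for 3 of the 9 genes in MDA-MB-175 (26.6% of all genes), 3 of the 7 in ZR-75-30 (42.0%) and 4 of the 6 in HCC1500 with all cultures (32.4%) or without replicate 3 (58.1%). Since the genes were picked with these contrasts known, nothing is read from these counts.

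The change with glucose was also set side by side between the lines. In an F test over all 24 libraries, given as a description since the genes were picked with these changes known, the genes called were A2M, SERPINA3, SERPINA5, AGT and CHI3L1, 5 of the 9 genes, with all cultures and without HCC1500 HG replicate 3, against 29.3% and 48.6% of all genes. The distance between the largest and the smallest log2 change of the 3 lines was 0.84 for A2M, 1.19 for SERPINA3, 1.86 for SERPINA5, 3.33 for AGT and 3.78 for CHI3L1. For A2M and CHI3L1 the HCC1500 side of this distance rests on libraries at or under 3 reads, and for SERPINA5 the ZR-75-30 side rests on 0 to 9 reads per library. SERPINE2, SERPINA1, SERPINB5 and CP were not called, and nothing is read from these counts.

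Levels at LG differed widely between the lines for the 3 SERPINA genes, A2M, SERPINE2 and CP, and by less for AGT, whose difference between the lines was smaller than its 14.4-fold difference by glucose in ZR-75-30. At LG, SERPINA1 was 23.8-fold higher in HCC1500 than in ZR-75-30, and 37.6-fold higher in ZR-75-30 than in MDA-MB-175. SERPINA3 was 400-fold and SERPINA5 370-fold higher in HCC1500 than in MDA-MB-175, which came next. A2M was 4.80-fold higher in MDA-MB-175 than in ZR-75-30 and at least 233-fold higher than in HCC1500, where the bound takes 3 reads per library as the floor. SERPINE2 was 30.7-fold higher in HCC1500 than in MDA-MB-175. CP in MDA-MB-175 was at least 10.9-fold higher than in ZR-75-30 and at least 17.8-fold higher than in HCC1500. AGT at LG was 6.01-fold higher in ZR-75-30 than in MDA-MB-175 and 5.25-fold higher than in HCC1500. These 2 ratios are rough, since AGT had 13 reads over the LG libraries of MDA-MB-175 and 21 over those of HCC1500. Of the 9 genes, all were called between MDA-MB-175 and ZR-75-30, where 63.8% of all genes were. Between MDA-MB-175 and HCC1500, 8 were called (72.6% of all genes), and 7 between ZR-75-30 and HCC1500 (73.0%). The calls of CHI3L1 and SERPINA5 between MDA-MB-175 and ZR-75-30, and of CHI3L1 between ZR-75-30 and HCC1500, came with overlapping values of at most 7.97. The levels were known when the genes were picked, and these counts too are a description.

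Ordered by group mean, A2M ran from MDA-MB-175 HG through MDA-MB-175 LG, ZR-75-30 HG and ZR-75-30 LG to HCC1500, and neighbours were apart until the 2 HCC1500 groups, which overlapped. For SERPINA1, SERPINA3 and SERPINA5 both HCC1500 groups came first and were apart from each other and from the rest. Below them the groups of a line overlapped each other in each of these 3 genes. For CHI3L1, ZR-75-30 HG stood apart, and the 5 other groups overlapped their neighbours. Per kilobase of exon, the mean normalised value in HCC1500 at LG was 725 for SERPINA1, 567 for SERPINA3, 431 for SERPINA5 and 14.6 for SERPINE2. On the same scale A2M had 41.8 in MDA-MB-175 at LG and 113 at HG, and AGT in ZR-75-30 at HG had 11.03. The lengths are unions of all annotated exons, 12703 bases for AGT and 4902 for SERPINA1, so this scale depends on the annotation.

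ALB, the plasma protein albumin, was also high in HCC1500. Its values there were 4931, 4802, 5000 and 4901 at LG and 2052, 2091, 3489 and 2062 at HG, against at most 3.56 in any library of the other lines. ALB fell, with a log2 change of -1.06 ± 0.17 (adjusted p = 0.0033), or -1.25 ± 0.02 without replicate 3 (adjusted p = 4.67e-17). Of 6 hepatocyte markers, 2 matched a row, and the other, SERPINC1, was at 2.09 ± 0.433 and 4.44 ± 2.18. The summed leukocyte markers of HCC1500 moved as well, from 1.72 to 3.80 at LG to 10.03 to 28.2 at HG, with CD14 at 1.79 ± 1.21 and 15.04 ± 8.34. The part of cells with such markers in the serpin values was not tested.

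Other genes of the pathways were taken as 8 lists of 153 genes in all, of which 100 matched a row. Those that passed the filter numbered 85 in MDA-MB-175 (21 called higher, 18 lower), 78 in HCC1500 (9 and 14, or 19 and 33 without replicate 3) and 71 in ZR-75-30 (20 and 16). Over all genes, 11.9% were called higher and 13.7% lower in MDA-MB-175, and 23.4% and 22.7% in ZR-75-30. In HCC1500 the shares were 7.46% and 13.0%, or 20.9% and 37.7% without replicate 3. The counts of each list below stand beside these shares, and nothing is read from them. The lists were chosen with earlier results of these data known, and no list was tested as a set. Where 3 values stand for the 3 lines, MDA-MB-175 comes first, then ZR-75-30, then HCC1500. A gene named for 1 line may also have been called in another, in either direction. TMPRSS2, LIF and LIFR were called higher, and C5 and ATP7B lower, in all 3 lines. SERPINI1 was called higher in ZR-75-30 and lower in MDA-MB-175. F2R was called higher in MDA-MB-175 and lower in HCC1500. LRP1 and CD109 were called higher in ZR-75-30 and lower in HCC1500, with CD109 in ZR-75-30 low, at means of 0.805 and 3.10. The 12 list genes named for HCC1500 by the size of their change had the same call without replicate 3. Their log2 changes were then -1.06 for CD109, -1.18 for CPAMD8, -0.67 for FN1, -1.10 for F2R, -0.45 for ATP7B and 1.76 for OVGP1, with values given beside the others.

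**Figure D4:**
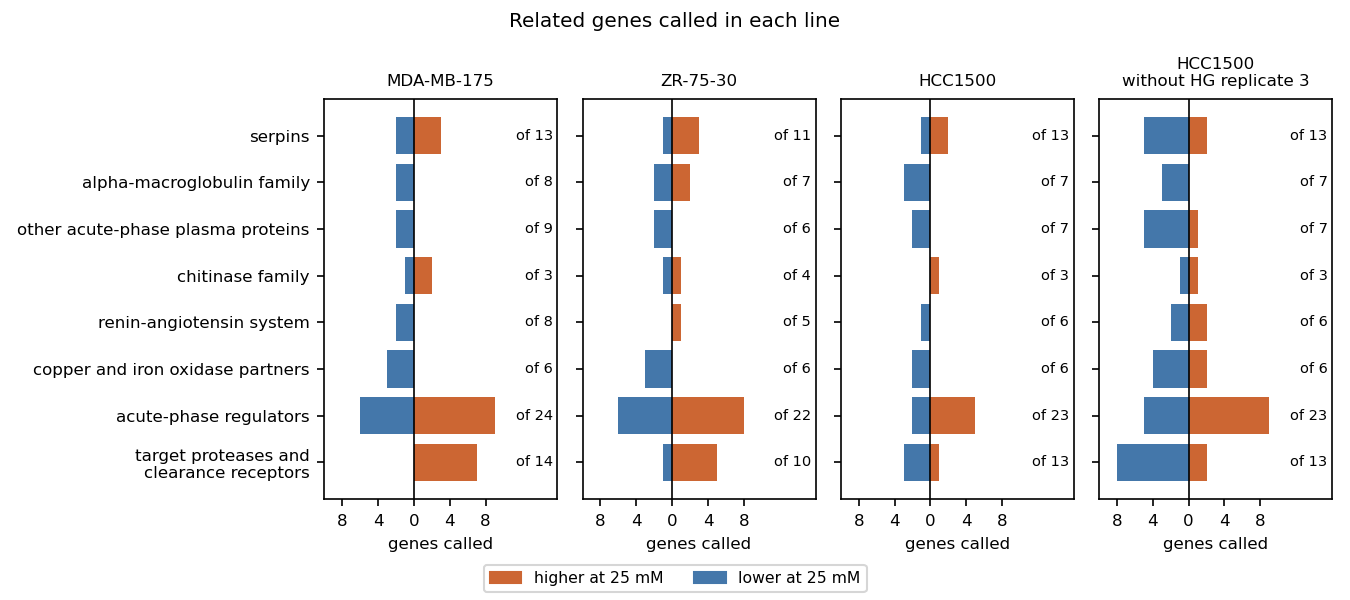
Number of genes called higher (orange, to the right) or lower (blue, to the left) at high glucose in each of the 8 lists (y axis) and each line (panels), with the number tested at the right edge. The acute-phase regulators had the most calls in each line, with 9 higher and 6 lower of 24 in MDA-MB-175. Of all genes, 25.7% were called in MDA-MB-175, 46.0% in ZR-75-30, 20.5% in HCC1500 and 58.5% in HCC1500 without replicate 3.

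Among other serpins, MDA-MB-175 had 3 rises and 2 falls of 13, ZR-75-30 had 3 and 1 of 11, and HCC1500 had 2 and 1 of 13 (2 and 5 without replicate 3). SERPINF1, which encodes pigment epithelium-derived factor, fell in MDA-MB-175 from 36.8 ± 2.98 to 26.8 ± 3.48 (adjusted p = 0.0296). SERPINB1, an inhibitor of neutrophil proteases, and SERPINI1, neuroserpin, rose in ZR-75-30 with log2 changes of 0.61 ± 0.06 (adjusted p = 1.24e-07) and 0.54 ± 0.07 (adjusted p = 1.76e-06). The median log2 change of the tested serpins was 0.11, 0.32 and 0.06 in the 3 lines, beside -0.02, 0.01 and -0.06 over all genes. Without replicate 3 the HCC1500 median was -0.06, beside -0.12 over all genes.

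In the alpha-macroglobulin family, which includes complement C3, C4 and C5, MDA-MB-175 had 0 rises and 2 falls of 8, ZR-75-30 had 2 and 2 of 7, and HCC1500 had 0 and 3 of 7, with or without replicate 3. At an unadjusted limma p under 0.05 the rises were also 0 in MDA-MB-175 and HCC1500, and 1 in HCC1500 without replicate 3, and edgeR called 0 in each. CD109 and CPAMD8, the membrane-bound and the large secreted relatives of A2M, fell in HCC1500 from 199 ± 7.77 to 87.0 ± 16.2 (log2 change -1.21 ± 0.15, adjusted p = 0.000844) and from 424 ± 11.1 to 184 ± 10.2 (-1.20 ± 0.08, adjusted p = 5.1e-05). In MDA-MB-175, where A2M was 2.70-fold higher at HG, CPAMD8 was at 860 ± 62.7 and 847 ± 35.4 and CD109 at 48.3 ± 5.41 and 50.3 ± 3.48. C4B rose in ZR-75-30 with a log2 change of 1.04 ± 0.28 (adjusted p = 0.0056), but its reads are shared with its near-identical copy C4A and the value is uncertain. A2ML1 fell there from 23.1 ± 3.19 to 14.02 ± 6.21 (adjusted p = 0.0236), and C5 fell in MDA-MB-175 (log2 change -0.42 ± 0.11, adjusted p = 0.0084). The median log2 change of the family was -0.06, 0.00 and -0.55 in the 3 lines.

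Of the other acute-phase plasma proteins, none rose and 2 fell in each line, of 9, 6 and 7 tested (1 and 5 of 7 in HCC1500 without replicate 3). The rises at an unadjusted limma p under 0.05 numbered 1 in HCC1500, 1 in ZR-75-30 and 0 in MDA-MB-175, and edgeR called 1, in HCC1500. Besides ALB, fibronectin (FN1) fell in HCC1500 (log2 change -0.93 ± 0.23, adjusted p = 0.0221) and in ZR-75-30 (-0.77 ± 0.07, adjusted p = 3.12e-08). AZGP1, zinc-alpha-2-glycoprotein, fell in ZR-75-30 and MDA-MB-175 by 0.22 on the log2 scale in both (adjusted p = 0.000144 and 0.0081). The median log2 change of this list was -0.22, 0.46 and -0.31 (-0.62 without replicate 3) in the 3 lines, where the ZR-75-30 median and its 2 falls differ in sign.

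Among the regulators of the acute-phase response, MDA-MB-175 had 9 rises and 6 falls of 24, ZR-75-30 had 8 and 6 of 22, and HCC1500 had 5 and 2 of 23 (9 and 5 without replicate 3). LIF, a cytokine of the IL-6 family, rose in MDA-MB-175 from 90.4 ± 12.7 to 175 ± 5.90 (log2 change 0.96 ± 0.09, adjusted p = 1.14e-06), and IL6R, the IL-6 receptor chain, rose from 3.97 ± 0.721 to 19.2 ± 3.79 (2.02 ± 0.23, adjusted p = 6.86e-06). LIFR, the LIF receptor, rose in ZR-75-30 (log2 change 1.09 ± 0.17, adjusted p = 2.92e-05) and in HCC1500 (0.96 ± 0.27, adjusted p = 0.0377, and 1.28 ± 0.04 without replicate 3, adjusted p = 4.93e-15). The kinase gene PIM1, a STAT target, rose in ZR-75-30 from 14.6 ± 3.86 to 30.2 ± 5.05 (adjusted p = 0.000666). IL1R1, the receptor of IL-1, fell in HCC1500 from values of 2625 to 2759 at LG to values of 673 to 985 at HG, with a log2 change of -1.62 ± 0.12 (adjusted p = 0.000103) and -1.50 ± 0.03 without replicate 3 (adjusted p = 6.31e-17). The median log2 change of this list was 0.10, 0.21 and 0.19 in the 3 lines.

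Of the proteases that serpins act on and the receptors that clear the complexes, MDA-MB-175 had 7 rises and 0 falls of 14 (1 fall at an unadjusted limma p under 0.05, and 0 by edgeR), ZR-75-30 had 5 and 1 of 10, and HCC1500 had 1 and 3 of 13 (2 and 8 without replicate 3). The protease gene KLK6 rose in MDA-MB-175 from 11.8 ± 2.26 to 41.9 ± 5.07 (log2 change 1.76 ± 0.18, adjusted p = 2.06e-06), and PLAUR, the urokinase receptor, from 13.8 ± 1.497 to 27.1 ± 1.996 (adjusted p = 0.000507). VLDLR, a receptor of the LRP1 family, rose in ZR-75-30 from 190 ± 13.8 to 374 ± 8.51 (log2 change 0.98 ± 0.06, adjusted p = 2.13e-10), and the membrane protease gene TMPRSS2 rose by 0.66 ± 0.04 (adjusted p = 9.8e-10). LRP1, the clearance receptor, fell in HCC1500 from 767 ± 48.5 to 394 ± 100 (log2 change -1.002 ± 0.193, adjusted p = 0.0075, and -0.79 ± 0.05 without replicate 3). In ZR-75-30 LRP1 rose from 129 ± 15.8 to 163 ± 20.1 with overlap (0.34 ± 0.10, adjusted p = 0.0079). The thrombin receptor gene F2R fell in HCC1500 from 29.6 ± 3.27 to 13.6 ± 3.71 (adjusted p = 0.0058). In MDA-MB-175 F2R rose from 407 ± 14.6 to 596 ± 32.1 (0.55 ± 0.05, adjusted p = 7.27e-07). The median log2 change of this list was 0.26, 0.40 and -0.34 in the 3 lines.

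The renin-angiotensin list beside AGT had 0 rises and 2 falls of 8 in MDA-MB-175, 1 and 0 of 5 for ZR-75-30, and 0 and 1 of 6 for HCC1500 (2 and 2 without replicate 3). These counts of 0 were also 0 at an unadjusted limma p under 0.05, and edgeR called 0 but for 1 rise in HCC1500. In ZR-75-30, where AGT was 14.4-fold higher at HG, the rise was LNPEP, an aminopeptidase that binds angiotensin IV, at 280 ± 25.4 and 311 ± 9.20 (adjusted p = 0.0497). ACE, the converting enzyme, fell in MDA-MB-175 from 101 ± 6.35 to 64.5 ± 2.04 (adjusted p = 4.54e-05), as did the prorenin receptor gene ATP6AP2 (log2 change -0.13 ± 0.04, adjusted p = 0.0194). The copper and iron partners of CP had no rise in any line, and 3, 3 and 2 of 6 fell (2 rose and 4 fell in HCC1500 without replicate 3). At an unadjusted limma p under 0.05 the rises were 1, 0 and 0, and edgeR called 0 in each line. The copper pump gene ATP7B fell in ZR-75-30 (log2 change -0.54 ± 0.08, adjusted p = 1.55e-05) and in HCC1500 (-0.68 ± 0.21, adjusted p = 0.04997), the copper importer gene SLC31A1 in ZR-75-30 (adjusted p = 0.000335), and the iron exporter gene SLC40A1 and the copper chaperone gene ATOX1 in MDA-MB-175 (adjusted p = 8.38e-06 and 5.59e-05). In the chitinase family, MDA-MB-175 had 2 rises and 1 fall of 3, ZR-75-30 had 1 and 1 of 4, and HCC1500 had 1 and 0 of 3, with 0 falls also at an unadjusted limma p under 0.05 and by edgeR, but 1 and 1 without replicate 3. The fall there was CHID1, with a log2 change of -0.43 ± 0.05 (adjusted p = 1.31e-06). OVGP1 rose in HCC1500 from 2.998 ± 0.586 to 12.9 ± 1.38 (adjusted p = 0.000424) and in MDA-MB-175 from 21.0 ± 2.30 to 29.9 ± 5.77 (adjusted p = 0.0487). CTBS, a lysosomal chitobiase, rose in ZR-75-30 (log2 change 0.64 ± 0.08, adjusted p = 1.41e-06) and MDA-MB-175 (0.27 ± 0.08, adjusted p = 0.0274), and CHID1 fell in ZR-75-30 (adjusted p = 0.0311). The median log2 changes in the 3 lines, in the same order, were 0.03, 0.05 and -0.23 for the renin-angiotensin list, -0.19, -0.14 and -0.21 for the copper and iron list, and 0.27, -0.08 and 0.07 (0.02 without replicate 3) for the chitinase list.

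The genes most like each of the 9 in pattern over the 6 groups were found by the root mean square difference between centred group means of log2(value + 1), with HCC1500 HG replicate 3 left out. For A2M they were GNE at a distance of 0.39 and S100A4 at 0.41. S100A4 had means of 1153 and 3578 at LG and HG in MDA-MB-175, 3.24 and 12.4 in HCC1500, and 339 and 604 in ZR-75-30. For SERPINA3 they were FAM101A (0.25) and MMP14 (0.27), and for SERPINA5 the same genes in the other order, MMP14 (0.23) and FAM101A (0.39). MMP14, a membrane-bound metalloproteinase gene, had means of 687 and 410 in HCC1500 and of at most 2.75 in the other lines. For CHI3L1 they were TLR2 (0.50), an innate immune receptor gene, at 1.70 and 12.8 in ZR-75-30, and ACP5 (0.58), a lysosomal phosphatase gene, at 3.36 and 24.6. For AGT they were CRTAC1 (0.64) and CRYAB (0.66), neither of them close, at 4.25 and 21.2 and at 7.38 and 23.3 in ZR-75-30. SERPINA1 lay nearest to BCL2 (0.36) and NRIP3 (0.78), SERPINE2 to FAM21B (0.36, uncertain because of near-identical copies) and ICAM1 (0.42), SERPINB5 to FAM225B (0.14) and ZFHX2 (0.17), and CP to KDR (0.16) and PLTP (0.20).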

How the data were processed

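RNA of 24 cultures was read on an Illumina HiSeq, and titles and treatment labels gave each culture its group. The authors' methods describe Trimmomatic, TopHat with hg19 and Ensembl v70 genes, DESeq2, and edgeR for CPM values with TMM factors, all described for tumor RNA. The submitters' processing notes for these cultures name edgeR and hg38. The deposited values are a normalised signal per gene, summing to 5559394 to 7594840 per sample, whose factor is not given in the sources used here. Every value was a whole number of reads times 1 factor per sample (100% of values within 0.01), and 1 read was worth 0.318 to 0.763. The table held 18889 genes, 260 at 0 in every sample.

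Each line was fitted on its own 8 samples with limma 3.58.1 (R 4.3.3) on log2(value + 1) with a variance trend, keeping genes that reached a value of 0.5 in 4 or more samples. Calls used a Benjamini-Hochberg adjusted p under 0.05 over all genes tested, and all adjusted p-values are limma's. A fit of 6 group means to all 24 samples gave the line contrasts and the F test. The scripts were tested on simulated data. Alternatives changed the pseudocount, filter, scaling, replicate block and samples, or used edgeR 4.0.16 and DESeq2 1.42.0 on the recovered reads, where edgeR called 3576 genes in HCC1500, 7397 in ZR-75-30 and 4402 in MDA-MB-175. The scaling to the mean total and the combinations that leave out HCC1500 HG replicate 3 were chosen after seeing the data.

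The 9 genes and the gene lists were chosen with earlier results of these data known. From each list and line, up to 2 called genes with the largest absolute log2 change and a higher group mean of at least 10 are named, with the 2 genes nearest in pattern to each of the 9, and TXNIP as a check of the labels. One list gene that this rule names is not reported here. COG2, HPS3, A2M-AS1, SERPINA10 and SERPINA11 are named for position, and genes of the marker lists, such as CD68, CD14, LUM and COL1A1, as markers. Coordinates are GRCh37 (GENCODE release 44 lifted to that build), which matched 96.3% of gene IDs, and exon length is the union of a gene's exons. Promoters were matched by symbol to RefSeq. Replicates entered as separate samples, and p-values measure only the spread between them. Intervals of read ratios are exact (Clopper-Pearson, 95%) and cover counting error only, and the floor of a library is 3 reads.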

Additional observations from a re-analysis of the deposited data

Results flagged for a closer look

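In 6 of 45 groups of 4 cultures with at least 3 reads of the gene in a library, 1 culture lay far from the rest, with a gap, as a share of the range, above Dixon's 95% critical value, which chance gives in about 1 group in 20. In HCC1500 at HG, replicate 3 was the distant culture for SERPINA1 (0.922, at 6746), SERPINA3 (0.973, at 2522) and SERPINA5 (0.90, at 1161), the library that stood apart across all genes. Its log2 distance from the other HG cultures was 0.82, 0.89 and 0.54 for these genes, at the 74.6, 77.3 and 61.4 percentile of the distances of 12488 genes. AGT in ZR-75-30 at HG had replicate 4 at 105 against 149 to 156 in the others (0.873). SERPINA1 in ZR-75-30 at LG had replicate 3 at 130 against 155 to 156 in the others (0.961). CP in HCC1500 at HG had 3 reads in replicate 1 and 0 in the others (1).

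A2M, SERPINA3, SERPINA5, AGT and CHI3L1 were called in the F test of the change with glucose between lines, which is a description here, since the genes were picked with these changes known. The largest and smallest log2 changes were 0.84 apart for A2M, 1.19 for SERPINA3, 1.86 for SERPINA5, 3.33 for AGT and 3.78 for CHI3L1. For A2M and CHI3L1 the smallest change is that of HCC1500, where neither passed the filter and no library had more than 2 reads, and for SERPINA5 the largest rests on at most 9 reads per library in ZR-75-30.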

How the results depend on the processing

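The log2 changes of the 9 genes, of which 22 could be tested over the 3 lines, did not change direction where called in any of 420 alternative values, and 9 values moved by more than the spread between cultures. These were CHI3L1 in ZR-75-30 (1.90 in CPM to 5.24 in DESeq2), AGT in ZR-75-30 (3.08 in CPM) and SERPINE2 in MDA-MB-175 (0.55 in CPM). CP in MDA-MB-175 lost its call in 8 of 19 alternatives. SERPINA5 in HCC1500 lost its call in the fit of all 24 samples. SERPINA5 in ZR-75-30 became called without LG replicate 3, SERPINB5 there without HG replicate 4, and SERPINA1 in HCC1500 with DESeq2. The cause was not tested.

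Over all genes, the fit of all 24 samples called 2011 genes in MDA-MB-175 in place of 4368, and 5842 in HCC1500 in place of 3350. HCC1500 gave 2015 to 9504 called genes and 14 to 52 called list genes when 1 culture was left out, with the upper ends without HG replicate 3. Without it, median-of-ratios scaling gave 9233 genes (51.0% higher) and 51 list genes, scaling to the mean total 9440 (38.4% higher) and 52, and edgeR 9112 (50.2% higher) and 49, against 35.7% higher on the deposited scale. Median-of-ratios scaling moved the median log2 change of all genes there from -0.12 to -0.01, and the changes became 0.23 for SERPINA1, -0.93 for SERPINA3, -0.90 for SERPINA5 and 0.81 for SERPINE2. With all cultures of HCC1500 it moved the share called higher from 36.4% to 49.2%. With a mean value of at least 10 required, 5 of the 9 genes were called between MDA-MB-175 and HCC1500, since fewer were tested. Without HCC1500 HG replicate 3 the F test called 8809 genes in place of 5316.

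The labels do not say whether same-numbered cultures were paired, and correlations of their deviations cannot settle it. The mean correlation of deviations of same-numbered cultures was 0.04, 0.01 and 0.02 in the 3 lines, with a largest value of 0.11 in MDA-MB-175. A replicate block left 1964 called genes in HCC1500. Depth limited A2M, CHI3L1 and CP in HCC1500 and SERPINE2 and CP in ZR-75-30, with at most 3 reads in any library.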
